A study of Mus musculus with 6 samples.

Results

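Resting CD140a(-)/Sca1(+) stromal cells of mouse skeletal muscle were set against both resting CD140a(+) subpopulations, CD140a(+)/Sca1(-) and CD140a(+)/Sca1(+). Genes entered when their deposited log2 value was at least 6 (52.7 normalized counts) in at least 1 of the 3 control libraries, and 605 of the 5983 genes that entered, of 22483 in the table, did so through the CD140a(-)/Sca1(+) library alone. Stromal cells were isolated from untreated contralateral muscle (control) and from muscle injected with 20 uM cardiotoxin, a cobra venom toxin that destroys muscle fibers, and taken on day 3 (injured), in Swiss white mice of 8 to 12 weeks. Cells positive for CD45 (leukocytes), CD31 (endothelium) or CD11b (myeloid cells) were gated out, and the rest was sorted by CD140a, the PDGF receptor alpha, and by Sca1. The series holds 6 libraries, 1 per sort and state, without replicates. All sorts shared the enzymatic digestion and 8 h at 37 °C before staining, for recovery of the surface markers. The number of mice behind each library was not given in the sources used here, and the labels name the tibialis anterior where the study's text names other hind limb muscles for acute injury. The injured libraries were used only for the last comparisons.

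CD140a and Sca1 together are the usual surface marks of fibro-adipogenic precursors (FAPs), the mesenchymal cells that lie between muscle fibers, lay down matrix and can become fibroblasts or adipocytes. Sca1 is carried by many FAPs, by endothelial cells and by some leukocytes, and its gene Ly6a belongs to the Ly6 family, several members of which respond to interferon. Interferons act through a complex that holds STAT2 and IRF9 and binds the interferon-stimulated response element (ISRE), a tandem repeat of GAAA in the promoters of antiviral genes. NF-kB binds kappaB sites in the promoters of chemokine genes, and HSF1 binds inverted repeats of GAA in the promoters of heat shock genes.

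Promoter stretches are shown first for genes on which the results turn, as given by RefSeq for build GRCm38.p6, each as 80 bases upstream of the annotated start, 5′ to 3′ on the strand of the gene. The first 4 belong to interferon-stimulated genes that were higher in the library labelled CD140a(-)/Sca1(+), and capitals mark a pair of GAAA 2 bases apart, read on either strand and so also as TTTC.
Rsad2 (chr12:26456528-26456607, minus strand): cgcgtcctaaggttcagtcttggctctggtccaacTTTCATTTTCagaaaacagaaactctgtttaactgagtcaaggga
Ifit3b (chr19:34607751-34607830, plus strand): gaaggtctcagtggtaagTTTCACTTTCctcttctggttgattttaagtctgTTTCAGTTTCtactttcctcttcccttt
Gbp7 (chr3:142530248-142530327, plus strand): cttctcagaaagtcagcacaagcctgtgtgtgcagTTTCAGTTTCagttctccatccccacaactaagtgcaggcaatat
Cxcl10 (chr5:92349058-92349137, minus strand): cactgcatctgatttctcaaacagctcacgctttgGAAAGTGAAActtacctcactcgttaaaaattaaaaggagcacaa
In the next pair, from neighboring neutrophil chemokine genes that were also higher there, capitals mark GGG and TTTCC 2 bases apart, read on either strand.
Cxcl1 (chr5:90891130-90891209, plus strand): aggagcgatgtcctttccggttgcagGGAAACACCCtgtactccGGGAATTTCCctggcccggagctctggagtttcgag
Cxcl2 (chr5:90903776-90903855, plus strand): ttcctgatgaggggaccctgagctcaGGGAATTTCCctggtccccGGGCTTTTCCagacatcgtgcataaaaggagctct
In the last pair, from heat shock genes that were lower there, capitals mark GAANNTTC, which reads the same on both strands.
Hspa1b (chr17:34959299-34959378, minus strand): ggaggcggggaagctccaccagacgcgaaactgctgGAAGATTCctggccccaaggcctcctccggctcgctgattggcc
Hspb1 (chr5:135887776-135887855, plus strand): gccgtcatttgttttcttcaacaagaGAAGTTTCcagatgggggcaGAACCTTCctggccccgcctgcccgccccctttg

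Windows of 250 bases before to 50 bases after each start were searched on both strands for 27025 genes, and 234 of the 324 genes counted below as higher and 54 of the 84 counted as lower had a window. The GAAA pair was found in 20 of the 30 interferon-list genes with a window, against 3.99% of all genes. It stood in the windows of 44 of the 234 higher genes (18.8%), of 2 of the 54 lower genes (3.7%) and of 152 of the 4429 other genes that entered (3.43%). Of the 44, 17 were higher genes of the interferon list, so this share is not separate from the count for that list below. The kappaB spelling was found in 6 of 21 chemokine-list genes and in 4 of 16 genes of the NF-kB list, against 1.89% of all genes. Among the higher genes 6.41% held it (15 genes, 5 of them from the chemokine list), and among the others that entered 1.92%. A shorter kappaB spelling, GGG and TTCC 2 bases apart, did not separate them, at 8.97% of the higher genes, 8.78% of the others and 6.58% of all. GAANNTTC was found in 9 of 15 heat shock genes, against 9.04% of all genes. Over the called genes this spelling was close to the share in all genes, at 6 of 54 lower genes (11.1%) and 8.55% of the higher ones, with 6.91% of the others. The same spelling followed by another GAA after 2 bases was in 3 of 15 heat shock genes, 0 of 54 lower genes and 0.587% of the others. These are letter matches and were not tested for binding.

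The deposited values were log2 values on a variance-stabilized scale, and they were turned back into normalized counts. Estimated depth was 11984413 reads for the control library labelled CD140a(-)/Sca1(+). It was 3248537 reads for the CD140a(+)/Sca1(-) library and 2346691 for the CD140a(+)/Sca1(+) library. The deepest control library thus had 5.11 times the reads of the shallowest, and 3 reads, the limit that a count of 0 allows, stood for 0.562, 1.93 and 2.65 normalized counts in that order. Intervals on folds are exact conditional Poisson intervals at 95% that cover counting error only. The injured CD140a(+)/Sca1(-) library stood apart, with 69.1% of the genes at 0, against 28.2% to 39.0% in the other 5 libraries.

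The labels were checked against the genes of the gate. Ly6a (chr15:74994877-74998031), which encodes Sca1, had 5850.0 normalized counts in CD140a(-)/Sca1(+), against 70.4 in CD140a(+)/Sca1(-) cells and 253 in CD140a(+)/Sca1(+) cells, so the Sca1(+)/CD140a(+) library was far closer to the Sca1(-) sort than to the CD140a(-)/Sca1(+) sort. Pdgfra (chr5:75152292-75198215), which encodes CD140a, had 211 normalized counts in CD140a(-)/Sca1(+), against 33.6 in CD140a(+)/Sca1(-) cells and 26.3 in CD140a(+)/Sca1(+) cells. Its order was the opposite of the CD140a label, 6.29-fold (95% interval 4.78 to 8.51) higher than in CD140a(+)/Sca1(-) and 8.02-fold (95% interval 5.55 to 11.9) higher than in CD140a(+)/Sca1(+). The sort names below are therefore the labels of the libraries, and CD140a(-) does not stand for low Pdgfra mRNA. The reason for the difference between surface label and mRNA was not tested. The study reports its lowest sorting enrichment for the control CD140a(+)/Sca1(+) population, and the part of this in the values here was not tested either. Ptprc, the gene of CD45, was low, with 20.5 normalized counts in CD140a(-)/Sca1(+), against 0 in CD140a(+)/Sca1(-) cells and 0.887 in CD140a(+)/Sca1(+) cells. Itgam, the gene of CD11b, had 24.0 normalized counts in CD140a(-)/Sca1(+), against 13.5 in CD140a(+)/Sca1(-) cells and 18.5 in CD140a(+)/Sca1(+) cells. Pecam1 (CD31) was highest in CD140a(+)/Sca1(+), with 47.4 normalized counts in CD140a(-)/Sca1(+), against 19.8 in CD140a(+)/Sca1(-) cells and 105 in CD140a(+)/Sca1(+) cells.

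**Figure D1:**
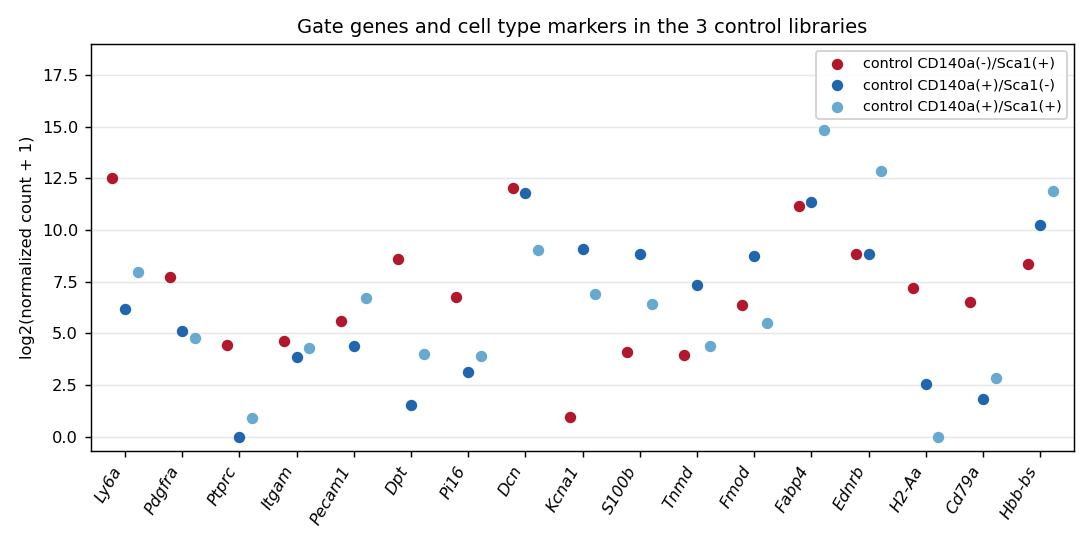
Normalized counts, as log2(count + 1) on the vertical axis, of the gate genes and of markers of FAPs (Dpt, Pi16, Dcn), Schwann cells (Kcna1, S100b), tendon (Tnmd, Fmod), endothelium (Fabp4, Ednrb), leukocytes (H2-Aa, Cd79a) and red cells (Hbb-bs). Each point is 1 control library; Pdgfra, Dpt and Pi16 are highest in the library labelled CD140a(-)/Sca1(+), and Kcna1 and S100b lowest there.

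Markers of other cell types moved with the comparison, each list summed in normalized counts. Of 27 leukocyte markers, 24 were highest in CD140a(-)/Sca1(+), where they summed to 1104, against 231 in the CD140a(+)/Sca1(-) library and 101 in the CD140a(+)/Sca1(+) library. Only 8 of them entered, 7 of these through the CD140a(-)/Sca1(+) library alone, so that they had to be high there. Of the 8, 6 were at least 3-fold higher, against 5.42% of all genes that entered, and Ptprc was at 0 in CD140a(+)/Sca1(-). Schwann cell and glial markers summed to 293 in CD140a(-)/Sca1(+), against 3164 in CD140a(+)/Sca1(-) and 712 in CD140a(+)/Sca1(+). Endothelial markers, 35 genes, summed to 6836, against 4306 and 42796 in that order, but Fabp4 and Ednrb carried the last sum. Without them the sums were 4067 in CD140a(-)/Sca1(+), against 1253 and 6229. Red blood cell genes summed to 697, against 1979.9 and 12162. The part of these cells in the results below was not tested. In such bulk libraries, fewer cells of a type and less RNA per cell cannot be told apart.

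Of the 5983 genes, 324 (5.42%) were at least 3-fold above the higher of both control CD140a(+) libraries and 84 (1.4%) at least 3-fold below the lower one, together 6.82%. These genes are called higher and lower from here on. With 1 library against 1 library of each of 2 different sorts there is no replicate check and no p value, and 10.9% of the genes were also 3-fold apart between both CD140a(+) libraries. The median difference on the deposited log2 scale was 0.16 (interquartile range -0.44 to 0.72), positive when higher in CD140a(-)/Sca1(+). Of the 324 higher genes, 221 had entered through the CD140a(-)/Sca1(+) library alone and so had to be high there. With entry decided by a mean of at least 6 over the 3 libraries instead, 4650 genes entered, of which 143 were higher and 60 lower. Without CD140a(+)/Sca1(-) as a comparator 714 were higher and 409 lower, and without CD140a(+)/Sca1(+) 437 and 224. Loxl3 lay just inside the limit for higher genes at 3.02-fold and Cdk6 just outside at 2.996-fold. Plod2 lay just inside the limit for lower genes at 3.01-fold and Igsf11 just outside at 2.99-fold. The entry limit fell between Rcbtb2, with a highest value of 6.002, and Ptpa, with 5.9997.

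**Figure D2:**
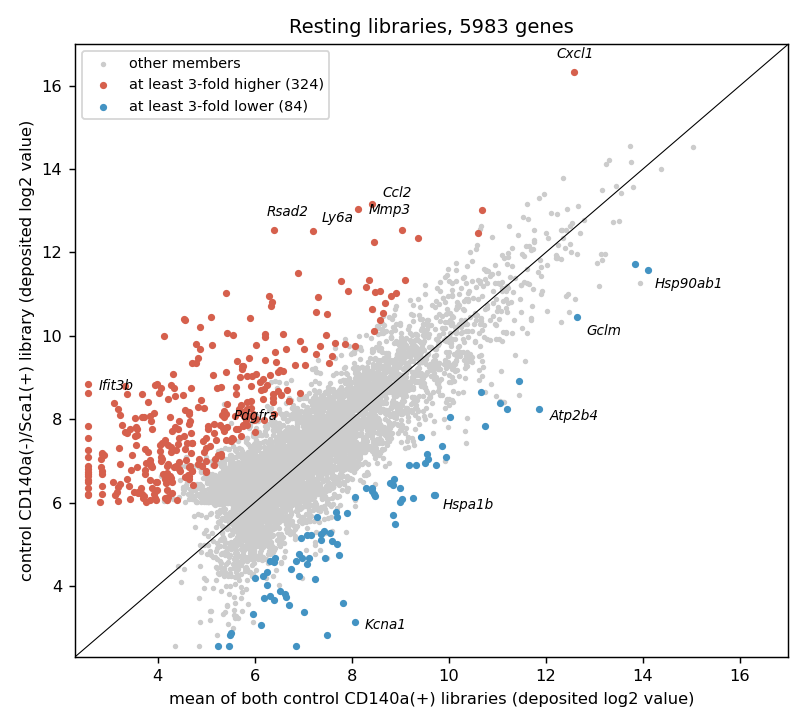
Deposited log2 values of the 5983 genes in the control CD140a(-)/Sca1(+) library (vertical axis) against the mean of both control CD140a(+) libraries (horizontal axis), with the line of equal values. Red points are the 324 higher and blue points the 84 lower genes; Cxcl1, Rsad2, Ly6a, Ccl2 and Mmp3 lie far above the line, and Kcna1 and Hspa1b far below it.

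Interferon-stimulated genes had the highest median difference of the 58 gene lists examined. Of 41 listed genes in the table, 34 entered, 33 of them were higher and 0 lower, against 5.42% and 1.4% of all genes. Of the 41, 40 had their highest normalized count in this library. The median difference of the 34 was 4.02 on the deposited log2 scale, against 0.16 over all 5983 genes, and 5.16 on the scale of normalized counts with counts of 0 set to 3 reads. Since 29 of the 34 entered through this library alone, the count was repeated with entry by the mean, and 12 were then higher. Genes of the list that no longer entered counted as not higher, so 12 is not a share of 34. Over all genes 143 of 4650 were higher under that rule, whose mean still holds the value of this library. Leukocyte markers, of which 24 of 27 were highest in the same library, moved the same way, and their part in these counts was not tested.

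Rsad2 (chr12:26442746-26456452), which encodes the antiviral enzyme viperin, had 5931 normalized counts in CD140a(-)/Sca1(+), against 21.2 in CD140a(+)/Sca1(-) cells and 212 in CD140a(+)/Sca1(+) cells. It was 279.7-fold (95% interval 199 to 407) higher than in CD140a(+)/Sca1(-) and 28.0-fold (95% interval 24.7 to 31.9) higher than in CD140a(+)/Sca1(+), and the CD140a(+) libraries were themselves apart. Ifit3b, a member of the IFIT family of RNA-binding antiviral proteins, had 382 normalized counts in CD140a(-)/Sca1(+) and no read in either CD140a(+) library, which makes it at least 198-fold and at least 144-fold higher when 3 reads per library are taken as the floor. Ifit3 had 291 normalized counts in CD140a(-)/Sca1(+), against 4.50 in CD140a(+)/Sca1(-) cells and 0 in CD140a(+)/Sca1(+) cells; it shares sequence with Ifit3b, so reads could have been split between them. Ifit1 had 442 against 1.28 and 15.01 normalized counts in CD140a(-)/Sca1(+) first and then in both CD140a(+) libraries, Sca1(-) before Sca1(+), the order kept from here on where sorts are not named.

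The GTPases of the interferon response were higher in the same library. Iigp1, an immunity-related GTPase, had 1012 against 2.57 and 16.8 normalized counts, Irgm2 804 against 10.4 and 31.2 and Tgtp2 216 against 0 and 0, although the members of this family are similar and reads could be shared. Mx2, a dynamin-like antiviral GTPase, had 378 normalized counts in CD140a(-)/Sca1(+), against 0 in CD140a(+)/Sca1(-) cells and 7.94 in CD140a(+)/Sca1(+) cells. Among guanylate-binding proteins, Gbp7 had 535 against 5.01 and 17.2 and Gbp2 295 against 25.9 and 15.7.

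Transcription factors of the pathway were part of the group. Irf7, which amplifies type I interferon, had 879 normalized counts in CD140a(-)/Sca1(+), against 4.44 in CD140a(+)/Sca1(-) cells and 44.5 in CD140a(+)/Sca1(+) cells. Stat2, a signal transducer of the receptor, had 137 against 8.99 and 9.71, and Irf9, which gives its complex the contact with DNA, had 814 against 93.1 and 149 normalized counts. Rtp4, an interferon-induced receptor transporter, had 1380.3 against 17.9 and 30.7, and Usp18, the protease that removes ISG15 and dampens the receptor, had 254 against 3.85 and 3.53. Tlr3, the endosomal sensor of double-stranded RNA, had 643 against 12.2 and 19.9. Oas1a, which senses double-stranded RNA too, had 219.9 against 0 and 6.18, and the membrane protein gene Ifitm3 had 2576 against 326 and 302.

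The largest difference of all genes with at least 100 normalized counts was that of G530012D18Rik, with 451 normalized counts in CD140a(-)/Sca1(+) and no read in both CD140a(+) libraries (at least 234-fold and at least 170.2-fold). Tor3a, an ATPase of the endoplasmic reticulum, had 1165 against 28.3 and 11.5. Ch25h, the enzyme that makes 25-hydroxycholesterol, had 175 normalized counts against 0 and 0. Xaf1 was the member of the interferon list that was not counted as higher, at 518 against 220.5 and 156, and Isg15 did not enter, at 36.2 against 0 and 3.53.

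Class I antigen presentation was split. Of 19 listed genes 13 entered, 5 were higher and 0 lower (5.42% and 1.4% of all genes). With entry by the mean 0 were higher, against 143 of 4650 over all genes. Genes of the list that no longer entered counted as not higher, so this 0 is not a share of 13. Psmb8, a subunit of the immunoproteasome, had 206 normalized counts in CD140a(-)/Sca1(+), against 5.14 in CD140a(+)/Sca1(-) cells and 5.30 in CD140a(+)/Sca1(+) cells, Psmb9 had 105 against 3.72 and 6.81 and Psmb10 75.7 against 0 and 5.30. Tap1, a subunit of the peptide transporter, had 159.7 against 3.41 and 13.1. The heavy chains and their partner did not pass: H2-K1 had 308 against 29.2 and 132, B2m 3399.8 against 621 and 2010.0, and H2-D1 was highest in CD140a(+)/Sca1(+), at 2436 against 775 and 3949. The H2 genes are near-identical copies, so their separate counts are uncertain.

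Within the Ly6 family, 3 of the 6 genes that entered were higher and 1 lower, against 5.42% and 1.4% of all genes. Of the 6, 1 had entered through the CD140a(-)/Sca1(+) library alone. One of these was Ly6a, the gene of the Sca1 antigen, by which both Sca1(+) sorts were selected. Ly6e had 2921 normalized counts in CD140a(-)/Sca1(+), against 29.5 in CD140a(+)/Sca1(-) cells and 333 in CD140a(+)/Sca1(+) cells. Ly6c2 had 94.7 normalized counts in CD140a(-)/Sca1(+) and no read in either CD140a(+) library. Cd59a, which shields cells from complement, was lower, at 14.8 against 244 and 109.

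Chemokines and colony stimulating factors had the next highest median. Of 30 such genes, 17 entered, 14 of them were higher and 0 lower, against 5.42% and 1.4% of all genes. All 17 differences were above 0 (median 3.53 on the deposited log2 scale). Of the 17, 5 had entered through the CD140a(-)/Sca1(+) library alone. With entry by the mean 9 were higher, where genes that no longer entered counted as not higher (143 of 4650 over all genes). Cxcl1 (chr5:90891241-90893115), which draws neutrophils through CXCR2, had 82158 normalized counts in CD140a(-)/Sca1(+), against 12381 in CD140a(+)/Sca1(-) cells and 3035 in CD140a(+)/Sca1(+) cells, and both CD140a(+) libraries were 6.64-fold (95% interval 6.54 to 6.73) and 27.1-fold (95% interval 26.2 to 28.0) below. Cxcl2 had 5901 against 1039.7 and 252, Cxcl3 1067 against 81.6 and 9.71 and Cxcl5 1973 against 127 and 33.5 normalized counts, each with CD140a(+)/Sca1(-) between the other libraries.

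Ccl2, which draws monocytes through CCR2, had 9181 normalized counts in CD140a(-)/Sca1(+), against 676 in CD140a(+)/Sca1(-) cells and 156 in CD140a(+)/Sca1(+) cells. Ccl7, another CCR2 ligand, had 2085 against 53.3 and 17.7. Csf1, the growth factor of macrophages, had 2528 against 406 and 105, and Cxcl12, a stromal chemokine that retains CXCR4-bearing cells, had 1024 against 299 and 90.8. The scavenger-receptor chemokine Cxcl16 had 1462 against 169 and 167. Ccl11, the eotaxin gene, was not counted, at 184 against 95.1 and 53.8.

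The CXCR3 ligands, which draw T cells and are induced by interferon, were close to absent from the CD140a(+) libraries. Cxcl9 had 434 normalized counts in CD140a(-)/Sca1(+), against 0 in CD140a(+)/Sca1(-) cells and 7.06 in CD140a(+)/Sca1(+) cells, Cxcl11 had 322 against 0 and 3.53, and Cxcl10 had 367 against 17.01 and 5.62. For Cxcl9 and Cxcl11 the CD140a(+)/Sca1(-) library held no read, which gives at least 225-fold and at least 167-fold.

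Feedback and adhesion genes of the NF-kB pathway gave 8 higher and 0 lower among 18 that entered, against 5.42% and 1.4% of all genes. Of the 18, 7 had entered through the CD140a(-)/Sca1(+) library alone. With entry by the mean 5 were higher, against 143 of 4650 over all genes. Genes of the list that no longer entered counted as not higher, so 5 is not a share of 18. Vcam1, the adhesion molecule for lymphocytes and monocytes, had 1659.9 normalized counts in CD140a(-)/Sca1(+), against 113 in CD140a(+)/Sca1(-) cells and 40.9 in CD140a(+)/Sca1(+) cells. The inhibitor gene Tnip1 had 864 against 105 and 25.8, and the A20 gene Tnfaip3 had 91.6 against 0 and 0.884. Nfkbiz, a nuclear cofactor of NF-kB, had 256 against 31.5 and 68.9. Icam1, a leukocyte adhesion molecule, had 335 against 103 and 83.0. Nfkbia, the classic feedback inhibitor, was highest in CD140a(-)/Sca1(+) but under the limit, at 10121 against 2971 and 4622, and so was the mitochondrial superoxide dismutase Sod2, at 6013 against 2009 and 1245.

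Of 13 genes of the IL-6 and IL-1 families that entered, 5 were higher and 0 lower, against 5.42% and 1.4% of all genes, and 5 of the 13 had entered through the CD140a(-)/Sca1(+) library alone. Il1rn, the secreted antagonist of the IL-1 receptor, had 873 normalized counts in CD140a(-)/Sca1(+), against 32.1 in CD140a(+)/Sca1(-) cells and 17.6 in CD140a(+)/Sca1(+) cells, and Il1rl1, the receptor of IL-33, had 999 against 89.9 and 43.1. Il1b had 124 normalized counts against no read in the CD140a(+) libraries. Tslp, an epithelial and stromal cytokine, had 104 against 2.57 and 3.53, and Socs3, which restrains IL-6 signaling, had 136 against 21.2 and 19.4. Il6 itself was not counted, at 283 against 75.6 and 133, nor was its relative Lif, at 273 against 114 and 13.2.

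Complement and acute phase genes followed. Among 8 complement genes that entered, 4 were higher and 1, Cd59a, lower, against 5.42% and 1.4% of all genes. Of the 8, 3 had entered through the CD140a(-)/Sca1(+) library alone and so had to be high there. Cfb, the protease of the alternative pathway, had 1316 normalized counts in CD140a(-)/Sca1(+), against 28.1 in CD140a(+)/Sca1(-) cells and 5.09 in CD140a(+)/Sca1(+) cells. C3, the central component, had 376 against 3.12 and 4.28, and the classical pathway protease C1ra had 529 against 86.7 and 32.7. C4b, which that pathway cleaves, had 158 against 18.6 and 6.18. Ptx3, a long pentraxin that binds C1q and microbes, had 1349 against 32.1 and 3.53, and the acute phase gene Saa3 had 419 against 9.84 and 10.6. In prostaglandin synthesis 3 of 5 genes that entered were higher, against 5.42% of all genes, and 1 of the 5 had entered through that library alone. Ptgs2, the inducible cyclooxygenase, had 616 against 164 and 62.7. Ptges, which makes prostaglandin E2, had 924 against 269 and 41.5, and Ptgis, which makes prostacyclin, 575 against 59.1 and 29.1.

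**Figure D3:**
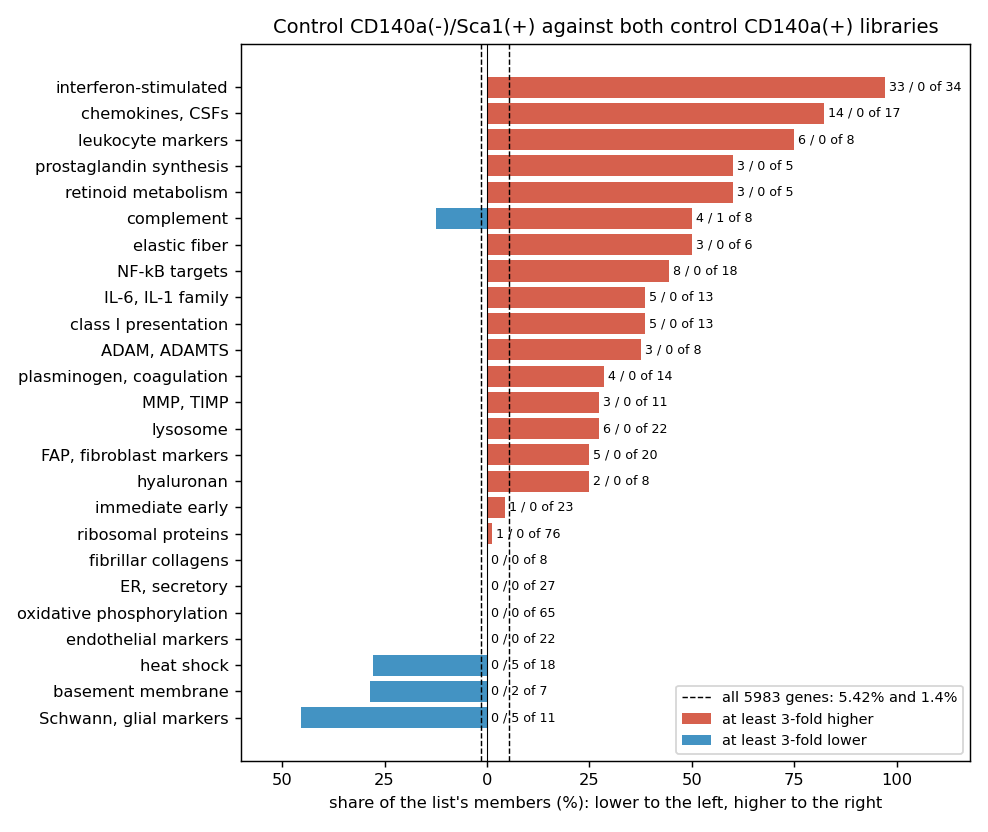
Share of the genes of each list that entered and were at least 3-fold higher (red, right) or lower (blue, left) in control CD140a(-)/Sca1(+) than in both control CD140a(+) libraries, in percent, with the counts of higher and lower genes and of genes that entered. Dashed lines give the shares over all 5983 genes, 5.42% and 1.4%; entry through the CD140a(-)/Sca1(+) library alone favors red bars.

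Fibroblast and FAP markers were not lower in the library labelled CD140a(-)/Sca1(+). Of 40 listed genes 20 entered, 3 of them through that library alone. Of the 20, 5 were higher and 0 lower, against 5.42% and 1.4% of all genes. Of the 40, 26 had their highest normalized count there. Their sum was 26246 normalized counts in CD140a(-)/Sca1(+), against 26849 in CD140a(+)/Sca1(-) and 17005 in CD140a(+)/Sca1(+). Dpt, a marker of adventitial fibroblasts, had 386 normalized counts in CD140a(-)/Sca1(+), against 1.93 in CD140a(+)/Sca1(-) cells and 15.01 in CD140a(+)/Sca1(+) cells, and Pi16, another, had 107 against 7.76 and 14.1. Mfap5, a microfibril protein, had 4831 against 573 and 202. Gsn, an actin-severing protein that fibroblasts also secrete, had 2279.9 against 492 and 185. Dcn, the most general fibroblast proteoglycan, was not counted, at 4139 against 3552 and 524, with CD140a(+)/Sca1(+) the lowest.

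Fibrillar collagens gave 0 higher and 0 lower among 8 that entered, near the 5.42% and 1.4% of all genes in a list of this size. Their median difference was -0.24 on the deposited log2 scale. Col1a1 had 652 normalized counts in CD140a(-)/Sca1(+), against 1458 in CD140a(+)/Sca1(-) cells and 1374 in CD140a(+)/Sca1(+) cells, Col1a2 1417 against 2620.1 and 1399 and Col3a1 882 against 682 and 376. Other collagen chains gave 0 higher and 0 lower among 9, again near the shares over all genes. Col6a3, a chain of the pericellular collagen VI, had 6.66 against 212 and 26.1, which was not 3-fold below CD140a(+)/Sca1(+) on the deposited scale, where low counts lie close together.

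Genes that remodel matrix were higher in part. Over all genes 5.42% were higher, which is the share to set beside each list of this paragraph. Of 11 matrix metalloproteases and inhibitors that entered, 3 were higher. Entry through the CD140a(-)/Sca1(+) library alone held for 2 of these 11, for 2 of 8 ADAM and ADAMTS genes and for 1 of 6 elastic fiber genes. Mmp3, a stromelysin, had 8439.5 normalized counts in CD140a(-)/Sca1(+), against 543 in CD140a(+)/Sca1(-) cells and 129.8 in CD140a(+)/Sca1(+) cells. Mmp9, a gelatinase, had 204 against 13.5 and 0, and Mmp10, the other stromelysin, had 142 against 21.2 and 4.41. Mmp2, the gelatinase of resting stroma, was not counted, at 275 against 191 and 71.9, nor was the inhibitor Timp1, at 229 against 77.5 and 13.3. The aggrecanase Adamts4 had 812 against 64.0 and 119.8 and its relative Adamts5 335 against 55.9 and 44.1, among 3 higher of 8 ADAM and ADAMTS genes. Vcan, a proteoglycan that both cut, had 517 against 56.7 and 36.7. Has1, a hyaluronan synthase, had 119 against 9.64 and 5.30. Elastic fiber genes gave 3 higher among 6, with Fbln2 at 205 against 38.1 and 40.8 and Fbln5 at 194 against 54.1 and 51.0, both of which bind elastin microfibrils.

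Regulators of plasminogen and coagulation gave 4 higher among 14 that entered, against 5.42% of all genes. Of the 14, 5 had entered through the CD140a(-)/Sca1(+) library alone and so had to be high there. Plau, the urokinase that activates plasminogen, had 84.5 normalized counts in CD140a(-)/Sca1(+), against 14.3 in CD140a(+)/Sca1(-) cells and 5.74 in CD140a(+)/Sca1(+) cells. Thbd, which encodes thrombomodulin, had 605 against 34.0 and 52.1, and F3, the tissue factor gene, had 160.2 against 38.2 and 4.45.

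Growth factor and developmental genes held single members. Bmp2 had 274 against 50.1 and 34.4, Fst, the follistatin that traps activin, had 266 against 10.02 and 77.5, and Gdf10 had 110.4 against 7.71 and 9.71. Smad7, an inhibitor of TGF-beta signaling, had 1475 against 465 and 323, and Sfrp4, a secreted Wnt antagonist, had 91.1 against 3.73 and 12.6. Transcription factors of limb mesenchyme were near the background as a list, with 2 of 22 higher, against 5.42% of all genes, and a median difference of 0.04. The 2 were Prrx1, at 405 against 85.9 and 94.5, and Twist2, at 191 against 14.1 and 16.8. No Hox gene entered, so their resting levels were not compared. In retinoid metabolism, Cyp26b1, which degrades retinoic acid, had 552 against 16.05 and 57.2, Aldh1a2, which makes it, had 83.6 against 0 and 7.94, and the retinol carrier Rbp4 had 78.5 against 7.07 and 5.30.

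The metallothionein genes Mt1 and Mt2 were higher, in a list whose median difference was -0.69 on the deposited log2 scale. Mt1, which binds zinc and copper, had 2117 against 434 and 274, and its close copy Mt2 had 8294 against 1090.0 and 2427. Over all genes 5.42% were higher and 1.4% lower. Of the 17 metallothioneins and NRF2 targets that entered, these were the 2 higher ones and the 2 with a difference above 0, and 1 was lower. That was Gclm, the regulatory subunit of glutathione synthesis, at 1398 against 5006 and 8106. Of 22 lysosomal genes that entered, 6 were higher and 0 lower (5.42% and 1.4% of all genes), with Npc2, a cholesterol carrier, at 5162 against 814 and 514, Grn (progranulin) at 2567 against 577 and 498 and the cathepsin Ctsk at 336 against 101 and 85.6.

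Several leukocyte genes were higher at low levels, while the red blood cell list went the other way, with 0 of 4 differences above 0. Of the 8 leukocyte genes that entered, 7 did so through the CD140a(-)/Sca1(+) library alone and so had to be high there. S100a9, a neutrophil calcium-binding protein, had 185 normalized counts in CD140a(-)/Sca1(+), against 13.5 in CD140a(+)/Sca1(-) cells and 0 in CD140a(+)/Sca1(+) cells, and its partner S100a8 had 111 against 10.9 and 0.883. The class II chain H2-Aa had 146 against 4.78 and 0. Cd79a, part of the B cell receptor, had 90.7 against 2.57 and 6.18, and Jchain, of secreted antibody, had 131 against 0 and 0.883. The myeloid receptor Clec4e had 141 against 0 and 0. Selp, the P-selectin of activated endothelium, was higher too. It had 649 normalized counts in CD140a(-)/Sca1(+), against 62.1 in CD140a(+)/Sca1(-) cells and 90.9 in CD140a(+)/Sca1(+) cells. Of 22 endothelial markers 0 were counted in either direction, near the 5.42% and 1.4% of all genes in a list of this size.

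Lower genes were led by myelin and Schwann cell markers. Of 22 listed genes 11 entered, 0 were higher and 5 lower, against 1.4% of all genes, and 1 of the 22 was highest in CD140a(-)/Sca1(+). Kcna1 (chr6:126640397-126646384), a potassium channel of myelinated axons, had 0.935 normalized counts in CD140a(-)/Sca1(+), against 545 in CD140a(+)/Sca1(-) cells and 119 in CD140a(+)/Sca1(+) cells. S100b, a calcium-binding protein of glia, had 16.3 against 460.0 and 84.7, and Mbp, the myelin basic protein, had 21.2 against 339 and 109.6. In each of these the CD140a(+)/Sca1(-) library was the highest. Sox10, the Schwann cell transcription factor, followed the same order at 2.62 against 73.2 and 11.5 without being counted.

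Heat shock genes were a further list with lower members. All 18 that entered had a difference below 0, 5 were lower and 0 higher, and the median difference was -1.30 on the deposited log2 scale. Over all genes 1.4% were lower and 5.42% higher. Hspa1b, the inducible HSP70, had 61.3 normalized counts in CD140a(-)/Sca1(+), against 288 in CD140a(+)/Sca1(-) cells and 2285 in CD140a(+)/Sca1(+) cells, 4.70-fold (95% interval 4.06 to 5.43) and 37.3-fold (95% interval 33.2 to 41.9) below the CD140a(+) libraries. Its neighbor Hspa1a is nearly identical, so reads may be shared, and it had 663 against 1656 and 5592. The small heat shock protein gene Hspb1 had 107 against 382 and 1835, and Cryab, of the same family, 124 against 1258 and 743. Of the cytosolic HSP90 genes, Hsp90ab1 had 3067 against 11935 and 25657 and Hsp90aa1 3360.4 against 12094 and 17468. In all of these the CD140a(-)/Sca1(+) library was the lowest. Hspa8, the constitutive HSP70, was under the limit at 1873 against 4612 and 8297, and so was its cochaperone Bag3 at 329 against 935 and 1231. Except for Cryab, the CD140a(+)/Sca1(+) library was the highest in each named heat shock gene.

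Other lower genes came from several roles. Atp2b4, a plasma membrane calcium pump, had 292 normalized counts in CD140a(-)/Sca1(+), against 1529 in CD140a(+)/Sca1(-) cells and 8842 in CD140a(+)/Sca1(+) cells. Acta2, the smooth muscle actin, had 82.8 against 749.7 and 275, and Myh11, the smooth muscle myosin, 3.94 against 86.7 and 43.3. They were the 2 lower of 10 pericyte and smooth muscle genes that entered. Of the 10, 1 (Steap4) was higher and 3 had a difference above 0, against 5.42% higher and 1.4% lower over all genes. Dag1, which ties cells to laminin, had 108 against 982 and 408, and the laminin chain Lamc1 62.8 against 275 and 420.3. Gatm, of creatine synthesis, had 1.87 against 231 and 58.3. Ptgr1, which reduces leukotrienes and prostaglandins, had 40.7 against 536 and 378. Gstp2, a glutathione transferase with near copies, had no read against 84.8 and 127. Grp and Krt17 were the other lower genes with no read in CD140a(-)/Sca1(+). Cdkn1c, the CDK inhibitor p57, had 6.56 against 75.2 and 56.5, and Plod2, a collagen lysyl hydroxylase, had 65.6 against 219.7 and 493. Hbb-bs, a beta globin of red cells, had 322 against 1205 and 3734. The predicted genes Gm10715, Gm10720 and Gm10722 were lower too, with Gm10720 at 61.3 against 425 and 1586, but they lie together on chromosome 9 and are similar, so their counts are uncertain.

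Some cell type markers separated the CD140a(+) libraries from each other. Tnmd, of tendon cells, had 14.4 normalized counts in CD140a(-)/Sca1(+), against 160.0 in CD140a(+)/Sca1(-) cells and 20.3 in CD140a(+)/Sca1(+) cells, and Fmod, of tendon matrix, had 81.0 against 426 and 44.1. Fabp4, of capillary endothelium, had 2318 against 2590.1 and 29146, and the endothelin receptor gene Ednrb 451 against 464 and 7421. The gap between both Sca1(+) sorts was smaller in 3 other endothelial genes. The cadherin gene Cdh5 had 506 against 146 and 547, the VEGF receptor gene Flt1 315 against 53.4 and 468 and the secreted Egfl7 716 against 229 and 752. Of the 22 endothelial markers that entered, 10 had a difference above 0. None of these genes was 3-fold from both CD140a(+) libraries on the deposited scale.

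Housekeeping programs and immediate early genes gave counts near or under the shares over all genes, 5.42% higher and 1.4% lower. At those shares short lists give few calls. Of 76 ribosomal protein genes 1 was higher, Rpl39l at 78.1 against 17.04 and 4.53, and of 65 oxidative phosphorylation genes, 27 secretory pathway genes, 17 glycolysis genes and 12 cell cycle genes 0 were higher or lower. The median difference was 0.15 on the deposited log2 scale for ribosomal protein genes and 0.14 for oxidative phosphorylation, near that of all genes. Of 23 immediate early genes, which respond within minutes to many stimuli, 1 was higher (Ier3, 1966 against 545 and 351) and 0 lower, with Fos at 107 against 117 and 69.7 and Egr1 at 1246 against 739 and 335.

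The same contrast was then read in the injured libraries, which the rule for members had not used. Of the 5983 genes 69 (1.15%) were at least 3-fold above both injured CD140a(+) libraries and 59 (0.986%) at least 3-fold below both. Of the 324 genes higher at rest 11 were also higher after injury, which is 3.40% of the 324 and 15.9% of the 69. Of the 84 lower genes 2, Cbx3 and Tial1, were also lower, which is 2.38% of the 84 and 3.39% of the 59. The resting higher genes had a median injured difference of 0.37 on the deposited log2 scale, the resting lower genes -0.12, and all genes 0.26. In the injured CD140a(+)/Sca1(-) library 1329 of the 5983 genes were at 0. A gene at 0 there could not be 3-fold below both injured CD140a(+) libraries, so the count of lower genes after injury was limited in advance.

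Among genes higher in both states were Ptx3, at 1031 against 161 and 289 normalized counts in the injured libraries, Lcn2, an iron-sequestering protein, at 81.7 against 0 and 16.96, and Lrp1, an endocytic receptor, at 791 against 1.97 and 57.3. Ets1, a transcription factor of stroma and endothelium, had 1368 against 342 and 341, and Plau 131 against 2.84 and 25.6. The interferon list gave 0 higher and 1 lower, Ifit3b, with a median injured difference of -0.19. Rsad2 had 327 normalized counts in injured CD140a(-)/Sca1(+), against 289.6 in injured CD140a(+)/Sca1(-) and 230.1 in injured CD140a(+)/Sca1(+), so the sorts lay close to each other. Cxcl1 had 21439 against 26580.2 and 4527 and Ccl2 7963 against 5029 and 3275, and 0 of the 17 chemokine genes were higher. Heat shock genes gave 0 in either direction, with Hsp90ab1 at 1646 against 931 and 6679.6. The Schwann cell list gave 0 in either direction too, with Kcna1 at 0 against 0 and 1.53. In the injured CD140a(+)/Sca1(-) library 17 of the 22 listed Schwann cell genes and 5 of the 19 heat shock genes were at 0. Those genes could not be counted as lower, so these counts do not show whether the resting difference was kept. All these list counts are near the injured shares over all genes, 1.15% higher and 0.986% lower. Pdgfra had 335 against 203 and 1240.0, highest in CD140a(+)/Sca1(+), and Ly6a 1177 against 2.09 and 4099.

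**Figure D4:**
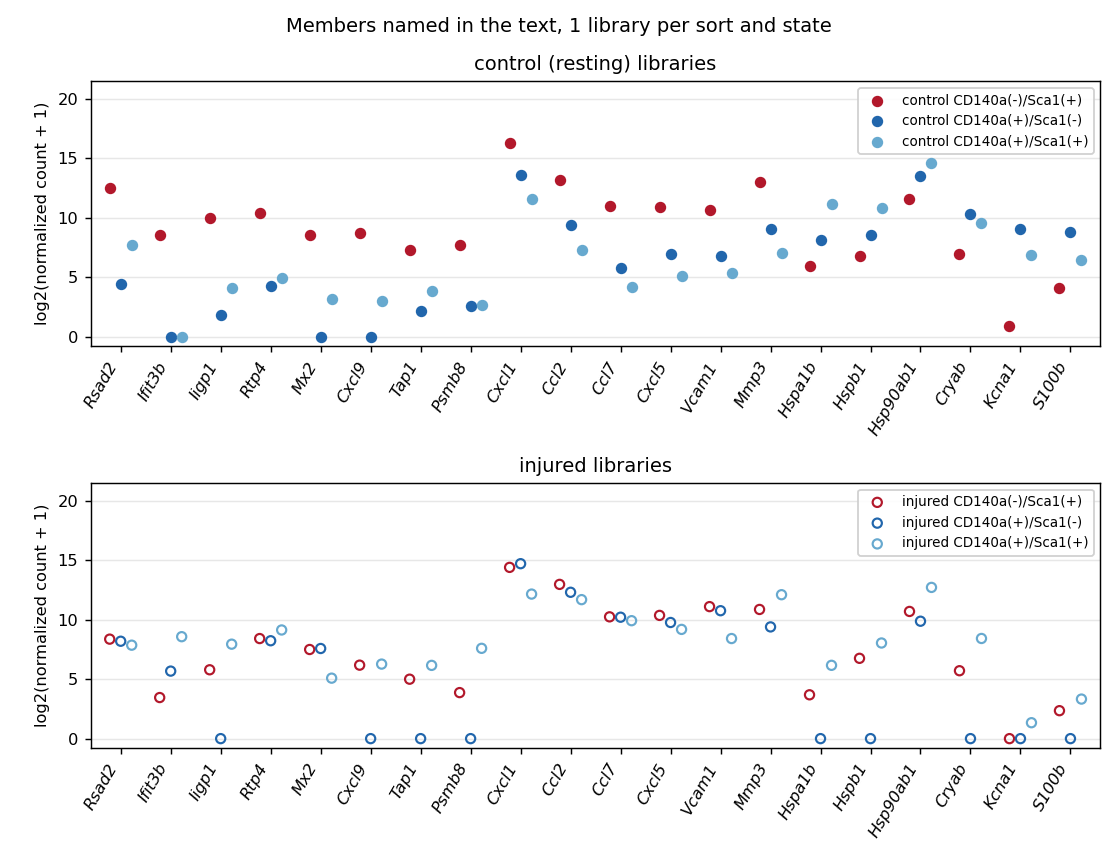
Normalized counts, as log2(count + 1), of named genes in the 3 control libraries (top) and the 3 injured libraries (bottom), 1 point per library. In the order of the legend, Rsad2 stands at 5931 against 21.2 and 212 at rest and at 327 against 289.6 and 230.1 after injury.

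A test across samples was possible only with both states together, as 2 CD140a(-)/Sca1(+) libraries against 4 CD140a(+) libraries in limma with the state as block. No gene had an adjusted p under 0.05 in either direction (0.0%); the lowest adjusted p was 0.994. At an unadjusted p under 0.05 there were 101 higher and 30 lower genes, 1.69% and 0.501% of the 5983. Together these are a smaller share than a limit of 0.05 gives by chance. Of them 78 and 12 had been counted at rest, but limma used the same control libraries again, so this overlap is partly built in. For Rsad2 the limma difference was 3.23 ± 1.40 (SE) with an adjusted p of 0.994, for Dpt 3.70 ± 1.14 with an adjusted p of 0.994, and for Hsp90ab1 -1.55 ± 0.97 with an adjusted p of 0.994. The interaction of sort and state, which asks whether the difference changed with injury, also gave 0 genes with an adjusted p under 0.05 in limma (lowest 0.9999) and 66 at an unadjusted p under 0.05. Without the injured CD140a(+)/Sca1(-) library the lowest adjusted p was 0.0753, with 252 higher and 169 lower genes at an unadjusted p under 0.05, and without the injured CD140a(+)/Sca1(+) library it was 0.317, with 423 and 38.

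**Figure D5:**
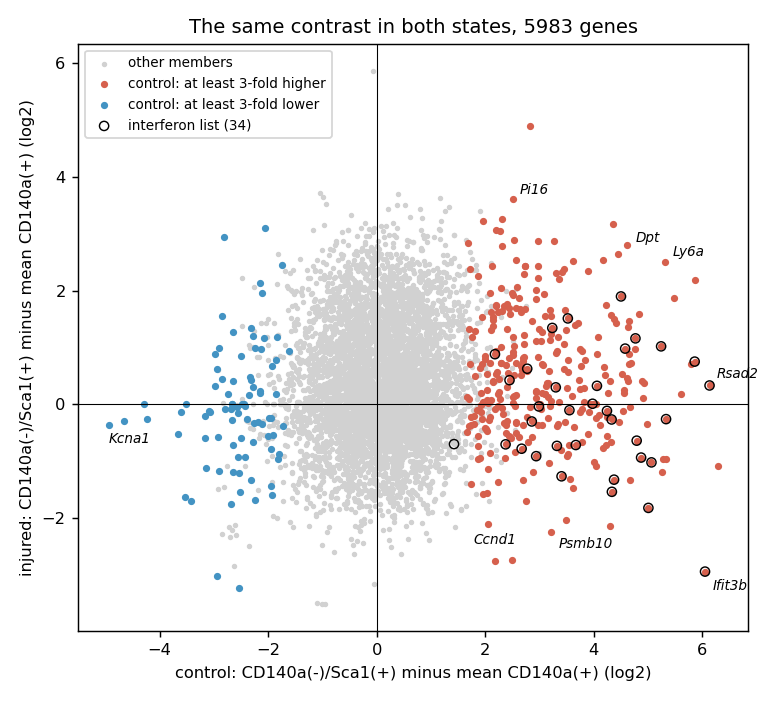
Difference of CD140a(-)/Sca1(+) from the mean of CD140a(+) on the deposited log2 scale at rest (horizontal axis) and after injury (vertical axis) for the 5983 genes, with genes higher (red) or lower (blue) at rest and the 34 interferon genes (circled). The interferon genes spread from 1.43 to 6.14 at rest and lie on both sides of 0 after injury.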

How the data were processed

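QuantSeq 3′ mRNA libraries of sorted stromal cells were read on an Ion Proton. After trimming (FastX-Toolkit), the authors aligned reads with STAR and BRB-seqtools against Ensembl release 90 of GRCm38 and normalized gene counts with DESeq2. The values the authors deposited are log2 values on the variance-stabilized scale of DESeq2 for 22483 genes, and 22453 identifiers were matched to symbols.

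Values were inverted to normalized counts with the closed form of that transformation (floor of 5.93 on the linear scale), and 1 read per library was read from the smallest steps. Of low values 56.1% to 64.0% lay within 0.02 reads of a whole number, so whole reads were not recovered and no count test was run. Differences were called at 3-fold from both CD140a(+) libraries on the deposited scale. limma 3.58.1 in R 4.3.3 was used for both states together (moderated, no trend, Benjamini-Hochberg over 5983 genes). The fold calls and limma were tested on simulated data. limma found 42 of 100 genes changed by 3 and 100 of 100 changed by 6 on the log2 scale, and called 4 unchanged genes. Every simulated gene had the same spread, while the spread of the real genes differed, so these rates do not carry over to the data. P values measure only the spread between these libraries, in which sorts and states stand in for replicates.

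Members and lists were chosen with earlier results of these data known. Named were the gate genes, the 15 largest differences per direction with at least 100 normalized counts, up to 6 called members per list (up to 4 by level where none was) and genes that the study names beside Sca1. Outside that rule, further members of the interferon, chemokine, class I, NF-kB, heat shock, cytokine, marker and collagen lists, and genes called in both states or at 0, were picked with their values in view. The alternatives concerned the limits, scale, scaling, libraries and depth. Promoter windows came from RefSeq (5 motif spellings searched), and gene positions from GENCODE M21. Python 3.11.15 with numpy 2.4.6 was used. The results of some genes that the rule covers are not reported here.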

Additional observations from a re-analysis of the deposited data

Results flagged for a closer look

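In 7 genes the resting and the injured contrast passed 3-fold in opposite directions, a difference between states that was not tested gene by gene beyond the interaction in limma, which gave no adjusted p under 0.05. Ifit3b stood at 6.05 on the deposited log2 scale at rest and at -2.95 after injury, Psmb10 at 3.22 and -2.25, Upp1, a uridine phosphorylase, at 3.48 and -2.03, and Plekha2 at 2.50 and -2.75. The opposite order held for Chl1, a neural adhesion molecule, at -2.81 at rest and 2.94 after injury, for Fbxo33 at -2.06 and 3.11, and for Plpp1 at -1.75 and 2.45. In the injured CD140a(+)/Sca1(-) library Chl1 and Plpp1 were at 0 and Fbxo33 had 0.796 normalized counts, and that library held 69.1% of all genes at 0.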

How the results depend on the processing

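With a limit of 2-fold, 580 genes were higher and 276 lower at rest in CD140a(-)/Sca1(+), and with a value of at least 8 in 1 control library 151 and 43. On log2 of the normalized count plus 1 there were 146 lower genes and plus 0.5 there were 148. Leaving out either CD140a(+) library gave 437 to 714 higher and 224 to 409 lower genes. The injured libraries gave 69 higher genes. The following were chosen after seeing the data: entry by a mean of at least 6 gave 143 higher genes, and thinning to the shallowest control library gave 322 higher and 96 lower, of which 312 and 79 were among the 324 and 84. No filter, median centring, 75th percentile scaling and quantile normalization gave 286 to 483 higher and 74 to 114 lower genes. In limma every alternative gave 0 genes with an adjusted p under 0.05. No paired analysis was possible because the replicate numbers only name single libraries, 1 per sort and state. The state was the block in limma, and without that block 72 higher and 28 lower genes had an unadjusted p under 0.05, against 101 and 30 with it.

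Named genes counted at rest changed sign only in the injured contrast; the cause was not tested. Of genes higher at rest, the injured difference on the deposited log2 scale was below 0 for Adamts4 -0.37, Bmp2 -0.56, Ccl5 -0.087, Ccnd1 -2.11, Cd52 -0.39, Ch25h -0.34, Ctsk -0.23, Ctss -0.66, Cxcl11 -0.96, G530012D18Rik -1.10, H2-Aa -0.18, H2-Ab1 -0.59, Icam1 -1.40, Ifit1 -0.94, Ifit2 -0.11, Ifit3 -1.02, Ifit3b -2.95, Ifitm3 -0.040, Igkc -0.14, Il1rn -1.33, Irf7 -1.83, Irf9 -0.78, Irgm2 -0.64, Jchain -2.14, Loxl3 -0.46, Lss -0.17, Ly6c2 -0.77, Mmp10 -1.20, Mpeg1 -1.04, Mt1 -0.33, Mt2 -0.33, Npc2 -0.37, Pcolce2 -0.43, Pdgfra -0.58, Plekha2 -2.75, Psmb10 -2.25, Psmb8 -0.53, Psmb9 -0.0058, Psme1 -0.97, Ptgis -0.31, Rtp4 -0.26, Stat2 -0.92, Tgtp2 -1.19, Tor3a -0.96, Upp1 -2.03, Usp18 -1.33. Of genes lower at rest, it was above 0 for Cdkn1c 0.99, Chl1 2.94, Cryab 0.45, Fbxo33 3.11, Grp 0.98, Hspa1b 0.0047, Hspb1 1.55, Plod2 0.23, Plpp1 2.45, S100b 0.33.

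Depth limits low counts most in the CD140a(+) libraries, where 3 reads stood for 1.93 and 2.65 normalized counts. Single libraries of 2 different sorts give no replicate error, and the injured CD140a(+)/Sca1(-) library had 1329 of the 5983 genes at 0.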
